A study of Mus musculus with 9 samples.

Results

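The 9 genes Mbp, Mog, Mag, Mobp, Cnp, Mal, Cldn11, Ugt8a and Opalin, which serve the myelin sheath and the oligodendrocytes that make it, were followed in the striatum of mice treated with MPTP. They were taken as the probe sets whose only gene symbol in the platform annotation is one of these names. This gave 9 probe sets, 1 for each gene, of 28815 on the array. All 9 lay above the filter on low values, a mean log2 intensity of 5.63. Total RNA of striatum was hybridised to 9 single-colour arrays, 3 for each of 3 groups. Control mice received 4 injections of saline at intervals of 2 h, and tissue was taken 1 week later. Acute MPTP mice received 4 intraperitoneal injections of 20 mg/kg at the same interval, with tissue also taken at 1 week. Chronic MPTP mice received 4 mg/kg once a day for 20 days, and tissue was taken at 8 weeks. Both MPTP groups thus received 80 mg/kg in all, but schedule and time differed together between the chronic and the other groups and cannot be told apart. MPTP is a toxin whose metabolite is taken up by dopamine neurons, the axons of which end in the striatum. The sources used here give no strain, age or sex. Whether each array stands for its own animal is not stated, so the p-values speak only of the spread between samples, which may be technical.

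Oligodendrocytes wrap axons of the central nervous system in a multilayered, lipid-rich membrane that speeds conduction and supports the axon. In the striatum the wrapped axons run in bundles of the internal capsule that cross the tissue, and the corpus callosum lies directly above it. In RNA from whole tissue, fewer oligodendrocytes and less RNA per oligodendrocyte cannot be told apart.

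The arrays differed in markers of tissue next to the striatum. The mean of 16 markers of cortical glutamatergic neurons lay 0.61 to 1.04 above its average on control 1, acute 1 and acute 2 and between -0.69 and -0.24 on the other 6 arrays (all list means are mean log2 deviations from each gene's mean over the 9 arrays). The mean of 14 choroid plexus and ependyma markers lay at 0.77 on control 3 and 1.37 on acute 3, and between -0.54 and -0.02 elsewhere. Markers of thalamus, septum and hypothalamus were high on the same pair of arrays, at 1.06 and 0.47. The striatal projection neuron marker Ppp1r1b was present on every array, at log2 11.44 to 12.31. The mean of 18 markers of these neurons was lowest on control 1 (-0.44) and control 3 (-0.51) and stood at 0.13 on control 2. It lay between -0.01 and 0.07 on the acute arrays and at 0.18, 0.25 and 0.32 on chronic 1, 2 and 3. All 3 chronic arrays were thus above all 3 controls. Of the markers, 18 of 18 had a higher mean than controls after acute (median 0.29) and after chronic MPTP (median 0.52). In limma, 1 of 18 had an unadjusted p under 0.05 for acute and 14 of 18 for chronic MPTP against control, and 0 passed after adjustment.

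For none of the 9 genes did the groups separate. Acute MPTP and controls overlapped for all 9, as did chronic MPTP and controls and chronic and acute MPTP. In limma, adjusted over all 17480 tested probe sets, 0 of the 9 passed the threshold of 0.05 in any comparison, and 0 had an unadjusted p under 0.05. Over all tested probe sets, 0% passed for acute MPTP against control, 0% for chronic MPTP against control and 0.0114% for chronic against acute MPTP, the latter being Nr4a1 and Arc, named here after their values were seen. An unadjusted p under 0.05 was found for 163 (0.932%), 941 (5.38%) and 893 (5.11%) of them, and groups that did not overlap for 3.64%, 6.32% and 8.49%.

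Mbp and Mobp are basic proteins of compact myelin. Mbp, the basic protein that holds the cytoplasmic faces of the membrane together, had the smallest range of the 9 genes, with log2 intensities of 11.97, 12.18 and 12.11 on control 1, 2 and 3. After acute MPTP they were 12.19, 12.06 and 12.10, and after chronic MPTP 12.26, 12.10 and 11.995. All 9 values lay within 0.29, a 1.22-fold range, and no group stood apart. Group means were 12.08 ± 0.11 (SD, n = 3) in controls, 12.12 ± 0.07 after acute and 12.12 ± 0.13 after chronic MPTP. The difference was 0.03 (95% interval -0.19 to 0.25) for acute MPTP against control and 0.03 (-0.18 to 0.25) for chronic MPTP against control, the narrowest intervals of the 9 genes. Mobp, of the same compartment, was at 11.14, 11.32 and 11.53 in controls, 11.45, 11.08 and 11.54 after acute and 11.52, 11.31 and 11.49 after chronic MPTP. The lowest and the highest of these values were both acute arrays, and the difference from control was 0.03 ± 0.14 (SE) for acute and 0.11 ± 0.14 for chronic MPTP.

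Mog and Mag lie at the outer and inner surfaces of the sheath. Mog, an immunoglobulin-domain protein of the outermost lamella, lay at 10.53, 11.06 and 11.12 in controls, 10.94, 10.88 and 11.46 after acute and 10.93, 10.31 and 10.91 after chronic MPTP. Acute 3 was the highest array and chronic 2 the lowest, 2.22-fold apart, while the other arrays of these groups lay close together. Mog had the largest difference of the 9 genes between the MPTP groups, -0.37 ± 0.23 for chronic against acute MPTP (adjusted p = 0.873 in limma). Its differences from control were 0.19 ± 0.23 for acute and -0.19 ± 0.23 for chronic MPTP. Mag, the sialic acid-binding adhesion protein that faces the axon, lay at 10.81, 11.36 and 10.97 in controls, 11.35, 11.23 and 11.41 after acute and 11.29, 10.79 and 10.98 after chronic MPTP. The 3 acute arrays were close together and high, but control 2 lay among them and chronic 1 also reached their range. Mag differed by 0.28 ± 0.16 for acute MPTP against control (adjusted p = 1 in limma) and by -0.31 ± 0.16 for chronic against acute MPTP (unadjusted p = 0.0878, adjusted p = 0.873), the smallest unadjusted p of any of the 9 genes.

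Cnp and Mal are proteins of the cytoplasm-filled channels and of lipid rafts. Cnp, a cyclic nucleotide phosphodiesterase that keeps these channels open, was at 11.98, 12.47 and 12.40 in controls, 12.29, 12.12 and 12.54 after acute and 12.33, 11.997 and 12.29 after chronic MPTP. Control 1 and chronic 2 were the low arrays, and the difference from control was 0.03 ± 0.16 for acute and -0.08 ± 0.16 for chronic MPTP. Mal, a proteolipid of rafts involved in sorting of myelin components, was at 11.23, 11.34 and 11.42 in controls, 11.35, 11.05 and 11.60 after acute and 11.55, 10.71 and 11.39 after chronic MPTP. Of the chronic arrays, 1 lay below and 1 above all controls. The means of Mal were 11.33 ± 0.10 (SD, n = 3), 11.33 ± 0.28 and 11.22 ± 0.44 in control, acute and chronic arrays.

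Cldn11, the claudin of the tight junctions between myelin lamellae, was at 10.54, 11.03 and 11.44 in controls, 10.94, 10.90 and 11.51 after acute and 10.87, 10.49 and 11.32 after chronic MPTP. In each group its highest array was number 3, and 2 of these 3 were the arrays high in choroid plexus and thalamus markers; the part of neighbouring tissue in this was not tested. Ugt8a, the transferase that makes galactosylceramide, the main glycolipid of myelin, had the widest spread. It lay at 10.42, 10.27 and 10.01 in controls, 10.58, 9.996 and 10.66 after acute and 10.66, 9.41 and 10.34 after chronic MPTP. Chronic 1, level with acute 3, and chronic 2 were the highest and the lowest of the 9 arrays, 2.37-fold apart within 1 group. Opalin, a transmembrane glycoprotein of oligodendrocytes, was at 8.78, 9.06 and 8.99 in controls, 9.17, 8.75 and 9.20 after acute and 9.37, 8.58 and 8.91 after chronic MPTP. Its extremes were likewise chronic 1 and chronic 2.

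**Figure D1:**
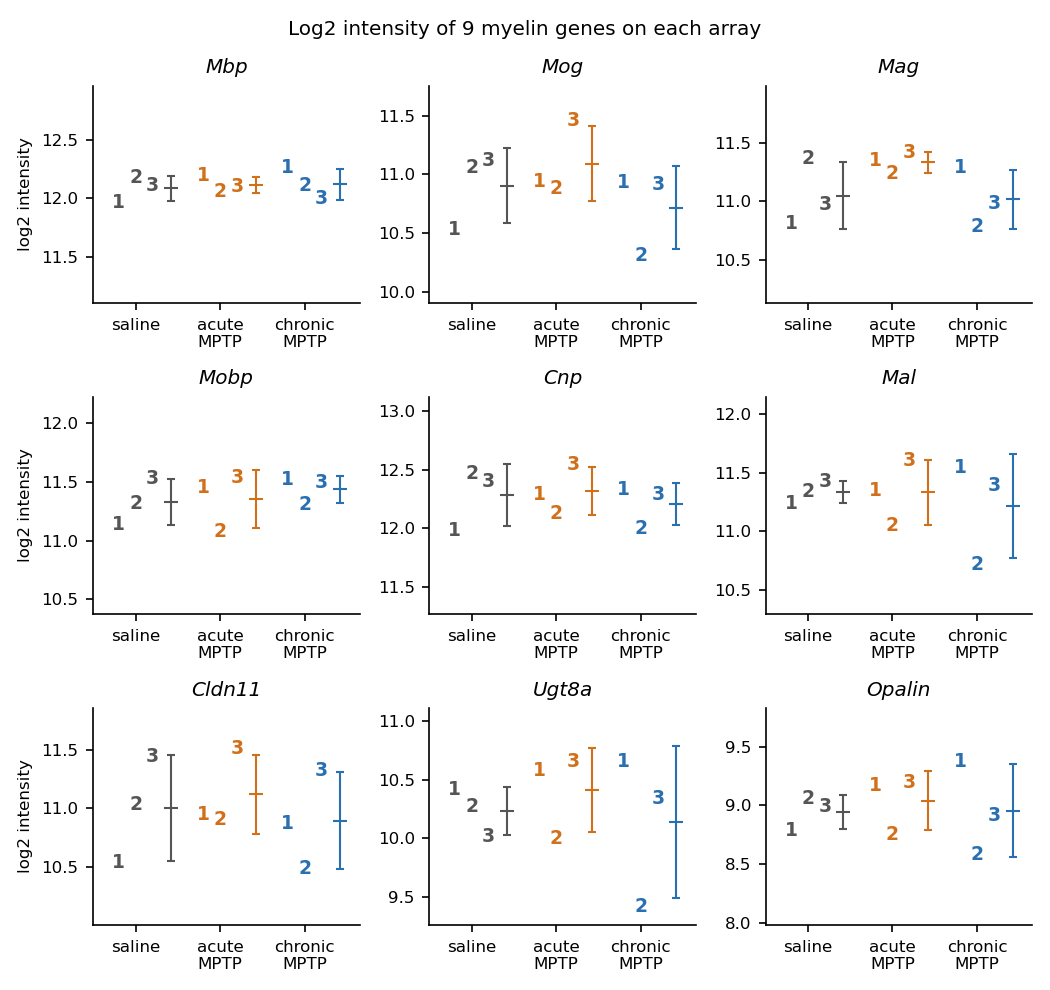
Log2 intensity (vertical axes, all spanning the same width) of each of the 9 genes on every array, with the array's number as the plotting symbol, and beside each group its mean with SD (n = 3). The groups overlap in every panel, Mbp spans 0.29 over all arrays, and array 2 of the chronic group is the lowest of all for 6 genes.

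The intervals say how large a difference between group means each gene could hide, given the spread between these arrays. They come from the fit without tissue markers and do not allow for differences in tissue content. With cortex and thalamus markers as covariates, Mag differed by -0.44 for chronic MPTP against control, outside its interval of -0.40 to 0.34. In that comparison the other genes stayed within their intervals. Of the 27 differences (9 genes in 3 comparisons), 14 had a 95% interval within 1.5-fold in either direction. These were 5 of 9 genes for acute MPTP against control, 5 of 9 for chronic MPTP against control and 4 of 9 for chronic against acute MPTP, where 87.9%, 82.4% and 82.6% of all tested probe sets did so. Mbp, Mobp, Cnp and Opalin were within this bound in all 3 comparisons, Mag and Mal in 1 each, and Mog, Cldn11 and Ugt8a in none. For Ugt8a the interval for chronic against acute MPTP ran from -0.95 to 0.41, the widest of the 9. The median difference of the 9 genes was 0.10 for acute MPTP against control, -0.08 for chronic MPTP against control and -0.12 for chronic against acute MPTP, where the medians of all tested probe sets were 0.01, -0.01 and -0.02. Of the 9 genes, 8, 3 and 2 lay on the higher side in these comparisons. The comparisons share arrays and are not independent of each other.

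**Figure D2:**
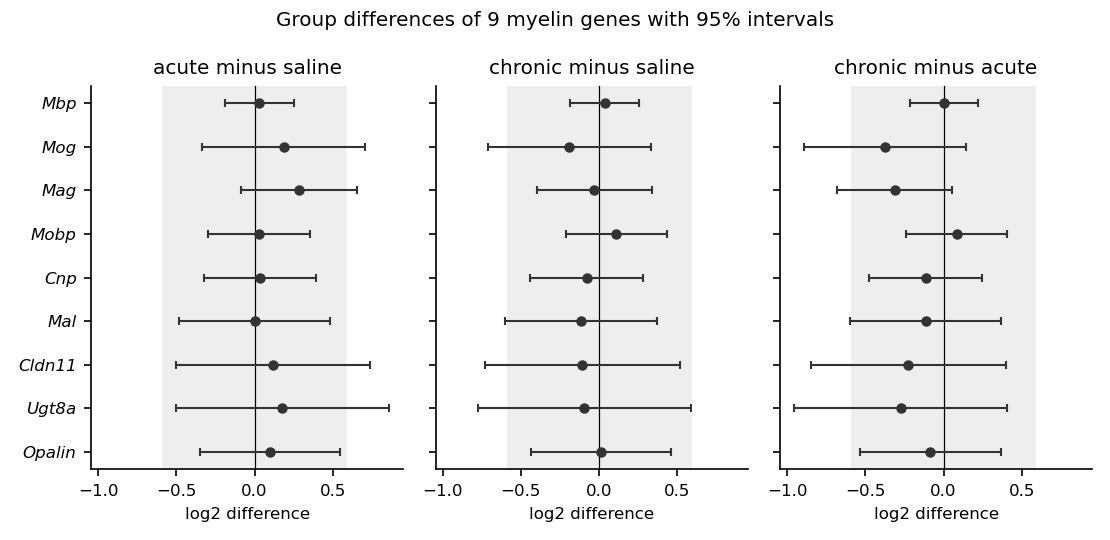
Log2 difference of the 9 genes in the 3 comparisons (points) with 95% intervals of the limma fit (bars); the grey band marks changes under 1.5-fold. Every interval includes 0, the narrowest are those of Mbp and the widest those of Ugt8a.

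Most of the 9 genes had a wide spread between arrays of 1 group. The SD pooled over the 3 groups had a median of 0.28 over the 9 genes, against 0.15 over all tested probe sets. It was 0.11 for Mbp, above that of 24.5% of tested probe sets, 0.33 for Mog (above 92.5%), 0.40 for Cldn11 (above 96%) and 0.44 for Ugt8a (above 97.3%). The deviations ran in parallel across genes. On chronic 2 all 9 genes lay below their own mean over the 9 arrays and 6 had their lowest value (Mog, Mag, Mal, Cldn11, Ugt8a and Opalin), with a mean deviation of -0.40. On acute 3, 8 of 9 lay above their mean and 6 had their highest value, with a mean deviation of 0.30. Control 1 and acute 2 were low in 8 of 9 genes each, with mean deviations of -0.21 and -0.14, and chronic 1 was high in 8 of 9 (0.16). Each group thus held arrays that were high and arrays that were low in these genes. On chronic 2 cortical markers stood at -0.38, choroid plexus markers at -0.21, thalamus markers at 0.03, striatal neuron markers at 0.25 and astrocyte markers at -0.14; their part in the low myelin values was not tested. Acute 3 was the array with the most choroid plexus RNA, and its part was likewise not tested.

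**Figure D3:**
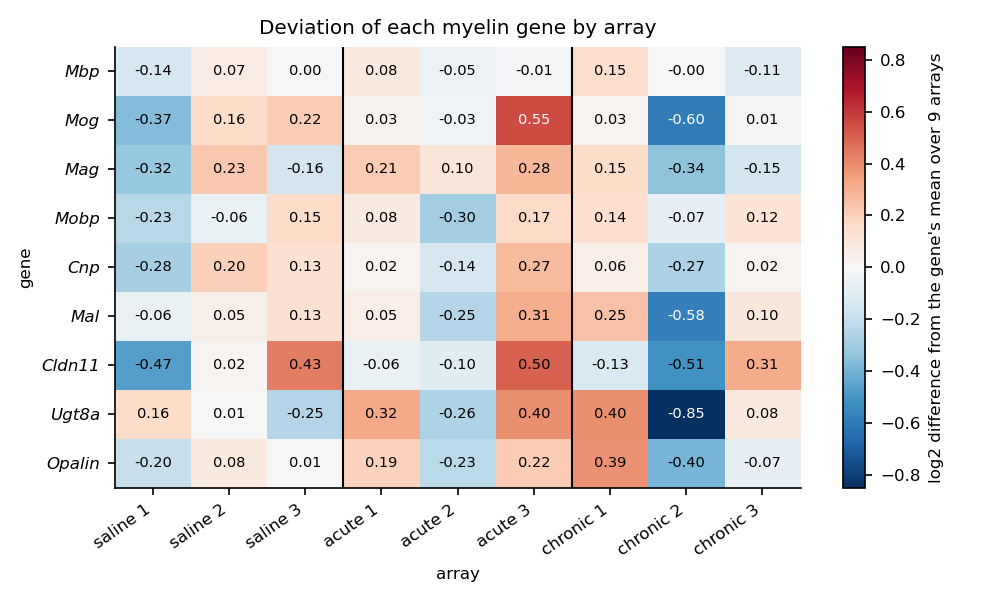
Log2 deviation of each gene (rows) from its own mean over the 9 arrays, by array (columns), with the value in each cell and red for higher, blue for lower; black lines part the groups. The column of chronic 2 is below 0 for all 9 genes and that of acute 3 is above 0 for 8 of 9, while the row of Mbp spans only 0.29.

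As a description of how closely each gene followed the rest, it was correlated with the mean of the other 8 over the 9 arrays, which share their tissue content among all genes. Pearson's r was 0.92 for Mal, 0.90 for Cnp, 0.90 for Mog and 0.88 for Opalin, and between 0.65 and 0.72 for Mag, Cldn11, Ugt8a and Mobp. It was 0.40 for Mbp, a value that 15.5% of the other tested probe sets reached or passed, against 0.0229% for the value of Mal. The closest genes outside the 9 were Ctsh, a lysosomal cysteine protease (r = 0.96 with the mean of the 9), Rpl23a (0.96), Zkscan8 (0.94), Grem1, a secreted antagonist of bone morphogenetic proteins (0.93), Tprkb (0.92), Trmt2b (0.92), Ttc5 (0.91), Pla2g7 (0.91), Vsig10 (0.91) and Pdgfd (0.90). None of them was in a list of oligodendrocyte genes, and their ranges over the arrays were small, 0.26 to 0.65. The most opposed were Asic3 (-0.95), Defb43 (-0.95), Cdca2 (-0.94), Lhx2 (-0.92) and Plcd3 (-0.92). They are the extremes of 17471 probe sets searched over 9 arrays, and nothing is read from these names. Lhx2, a factor of the forebrain, lay at 10.13 on chronic 2 and between 9.11 and 9.62 on the other arrays. It was itself in the list of thalamus, septum and hypothalamus markers, which also served as a covariate.

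Lists of other oligodendrocyte genes followed the 9 to different degrees. Of 32 genes of mature oligodendrocytes outside the sheath, 27 had r above 0.5 with the mean of the 9 (84.4%, median 0.62), against 9.85% of all tested probe sets (median -0.03). Of 26 other sheath and paranode genes 12 did so (46.2%, median 0.48), of 14 astrocyte markers 8 (median 0.54), of 14 choroid plexus and ependyma markers 5 (median 0.47) and of 14 genes of newly formed oligodendrocytes 4 (median 0.24). Of 15 oligodendrocyte precursor genes 1 did (6.67%, median -0.08), and of 15 transcription factors of the lineage 4 (median 0.27). Without chronic 2 the medians were 0.59 for mature oligodendrocyte genes, 0.47 for sheath genes, 0.60 for astrocyte markers, 0.24 for precursor genes and 0.51 for the transcription factors. Of the latter, 8 of 15 then had r above 0.5, against 7.21% of the tested probe sets outside the 9. Without control 1, 21 of 32 mature genes did so (median 0.58), against 14.5% of those probe sets. The median of the choroid plexus markers was 0.60 without chronic 2 and 0.04 without acute 3. Cortical neuron markers had a median of -0.31, and -0.68 without chronic 2. On chronic 2 itself the mean of the mature list was -0.24 and that of the sheath list -0.25, while precursor genes stood at 0.07 and the transcription factors at -0.06. Myrf, the factor that switches on the myelin genes at the end of differentiation, had its highest value of all 9 arrays on chronic 2, at 10.24, and so did Sox8, at 10.37. Both were named as genes of the transcription factor list with the smallest unadjusted limma p in any comparison. For both this was chronic MPTP against control, so high chronic values are in part a result of that choice. The mean of their whole list on this array was -0.06.

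**Figure D4:**
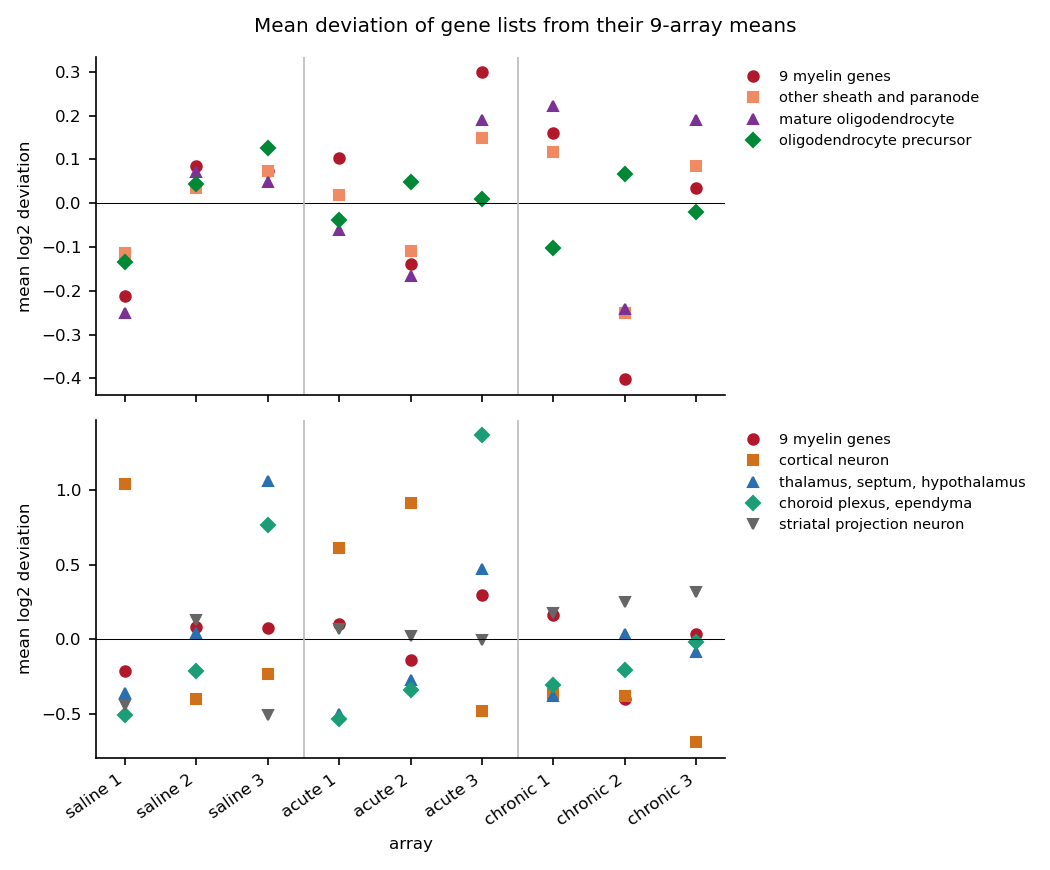
Mean log2 deviation of gene lists from their means over the 9 arrays, by array, with oligodendrocyte lists in the upper panel and markers of neighbouring tissue and of striatal neurons in the lower one (the vertical scales differ). On chronic 2 the 9 myelin genes (-0.40) and the mature and sheath lists are low while precursor genes are at 0.07, and in the lower panel cortical neuron markers are high on control 1, acute 1 and acute 2.

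The stretch upstream of the start site is shown for 5 of the 9 genes: Mal, Cnp and Mog, which followed the group most closely, Mag, and Mobp. Mobp was chosen because it held the SOX word most often. A link between these words and the parallel deviations across arrays was not tested. The sequences are from RefSeq (build GRCm38.p6), and 8 of the 9 genes were matched, all but Mbp. Each is 250 bases ending at the base before the start site, read 5′ to 3′ on the gene's strand. Capitals mark matches on either strand to the words CTGGCAC or CTGGTAC, bound by MYRF, and to ACAAAG, the core word of SOX factors such as SOX10, which drives oligodendrocyte genes; the MYRF and SOX words do not overlap in these windows.
Mal, chr2:127656696-127656945, minus strand: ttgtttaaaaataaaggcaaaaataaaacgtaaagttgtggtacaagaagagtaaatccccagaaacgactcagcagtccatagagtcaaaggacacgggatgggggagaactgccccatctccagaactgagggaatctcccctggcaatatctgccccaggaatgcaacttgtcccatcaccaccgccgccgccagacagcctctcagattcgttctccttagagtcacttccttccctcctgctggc
Cnp, chr11:100574689-100574938, plus strand: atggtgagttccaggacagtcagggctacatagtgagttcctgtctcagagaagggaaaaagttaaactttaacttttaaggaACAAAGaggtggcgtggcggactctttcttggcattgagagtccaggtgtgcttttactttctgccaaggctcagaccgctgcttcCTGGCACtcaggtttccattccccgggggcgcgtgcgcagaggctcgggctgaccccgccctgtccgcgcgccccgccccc
Mog, chr17:37023399-37023648, minus strand: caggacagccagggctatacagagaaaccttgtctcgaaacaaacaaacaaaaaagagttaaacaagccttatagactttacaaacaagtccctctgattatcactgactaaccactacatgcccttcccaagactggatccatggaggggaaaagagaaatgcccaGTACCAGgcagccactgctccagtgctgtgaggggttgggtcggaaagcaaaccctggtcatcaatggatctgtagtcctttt
Mag (the first of 3 listed starts), chr7:30914864-30915113, minus strand: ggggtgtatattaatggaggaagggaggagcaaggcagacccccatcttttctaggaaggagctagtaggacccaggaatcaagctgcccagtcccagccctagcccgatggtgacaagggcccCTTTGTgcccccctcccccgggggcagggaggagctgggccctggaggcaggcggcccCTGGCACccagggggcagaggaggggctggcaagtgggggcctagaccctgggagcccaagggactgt
Mobp, chr9:120149492-120149741, plus strand: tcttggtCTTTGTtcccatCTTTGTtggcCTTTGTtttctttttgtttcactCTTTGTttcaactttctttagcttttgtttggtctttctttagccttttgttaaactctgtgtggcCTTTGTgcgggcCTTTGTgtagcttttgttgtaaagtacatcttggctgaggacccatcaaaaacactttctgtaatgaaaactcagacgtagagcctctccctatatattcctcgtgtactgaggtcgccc
The MYRF words stood in the window of 3 of the 8 genes, Cnp, Mag and Mog, and in a window of 6.79% of all 27025 genes of the table (5.93% of 32851 promoters). The SOX word stood in 4 of 8, Cnp, Mag, Mobp and Opalin, and in a window of 18.6% of all genes (16.5% of promoters). Mobp held it 6 times, from position -243 to position -120 relative to the start. The windows of Mal, Cldn11 and Ugt8a held neither word, nor did the window of 1 of the 3 starts of Mag. A match is only a string of letters in these windows and does not show binding.

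After acute MPTP, the median difference from control with all arrays was 0.01 for the 26 sheath and paranode genes (14 higher, 12 lower), -0.01 for the 32 mature genes, 0.00 for 14 genes of newly formed oligodendrocytes, 0.01 for 15 precursor genes and 0.05 for 15 transcription factors. In each of these lists 0 genes passed the threshold in limma and 0 had an unadjusted p under 0.05. For 13 enzymes of myelin glycolipids and fatty acids the median was 0.02, and for 18 genes of cholesterol synthesis -0.01. Several of these medians depended on the 3 arrays high in cortex markers, without which acute 3, high in choroid plexus markers, is the only acute array. Without them the median was 0.12 for the mature genes (24 of 32 higher, against 14 with all arrays), 0.09 for the sheath genes (15 of 26 higher), 0.09 for newly formed oligodendrocytes (10 of 14 higher), 0.09 for the transcription factors (11 of 15 higher) and -0.05 for precursor genes (4 of 15 higher). For 19 genes of axonal signals to myelin and of the node of Ranvier the median went from 0.02 (10 of 19 higher) to -0.10 (4 of 19 higher). Among the latter, Jag1, a Notch ligand that holds precursors undifferentiated, had a difference of 0.24 ± 0.11 (unadjusted p = 0.0483, adjusted p = 1 in limma). It lay at 7.64, 7.77 and 7.50 in controls, 7.98, 7.79 and 7.86 after acute and 8.12, 7.87 and 8.11 after chronic MPTP. All 6 MPTP arrays were above the 3 controls, and the difference for chronic MPTP against control was 0.40 ± 0.11 (adjusted p = 0.9 in limma). Jag1 and the genes named from these lists below were picked as the 3 of each list with the smallest unadjusted p in any comparison. Separation of their groups is therefore in part a result of that choice.

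At 8 weeks after chronic MPTP, mature oligodendrocyte genes had a median of 0.11 against control, with 23 of 32 higher, and 0 of 32 passed the threshold in limma. Among them Enpp4 differed by 0.33 ± 0.12 from control (adjusted p = 0.9), and Il33, a cytokine held in the nucleus, by 0.53 ± 0.23 from acute MPTP (adjusted p = 0.873). Gsn, the actin-severing protein gelsolin, lay at 8.67, 9.01 and 8.86 in controls, 8.99, 9.12 and 9.11 after acute and 8.72, 8.55 and 8.55 after chronic MPTP. All 3 chronic arrays were below the acute ones, with a difference of -0.47 ± 0.10 (unadjusted p = 0.0014, adjusted p = 0.873 in limma). Of the 32 genes, 1 lay wholly higher and 2 wholly lower after chronic than after acute MPTP. Over all tested probe sets 8.49% did not overlap in this comparison. The median of the mature list turned to -0.13 with cortex and thalamus markers as covariates (4 of 32 higher), was -0.01 without the 3 arrays high in cortex markers, and was 0.21 without chronic 2 (29 of 32 higher).

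In the sheath and paranode list the median for chronic MPTP against control was -0.02, with 12 of 26 higher, and 0 passed in limma; it was 0.07 without chronic 2 (18 of 26 higher), -0.15 with cortex and thalamus markers as covariates (5 of 26 higher) and -0.08 without the 3 arrays high in cortex markers (8 of 26 higher). Cadm4, the adhesion protein by which the sheath holds the axon, lay at 9.31, 9.31 and 9.28 in controls, 9.28, 9.43 and 9.25 after acute and 9.08, 8.99 and 9.17 after chronic MPTP. The chronic arrays were below all others, with differences of -0.22 ± 0.08 from control and -0.24 ± 0.08 from acute MPTP (adjusted p = 0.918 and 0.873 in limma). Sirt2, a deacetylase of the sheath, and Jam3, a junctional adhesion protein, differed by -0.30 ± 0.13 and -0.33 ± 0.14 for chronic against acute MPTP (adjusted p = 0.873 for both). In that comparison 13 of the 26 genes were higher and 13 lower, from -0.61 to 0.40, with a median of -0.0027.

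Genes of the transition from precursor to myelinating cell lay in both directions, none past the threshold. For chronic MPTP against control the median was -0.07 for newly formed oligodendrocytes, -0.02 for precursor genes and 0.05 for the transcription factors, and -0.13, -0.10 and 0.03 without the 3 arrays high in cortex markers. Without chronic 2 the medians were -0.06, -0.10 and 0.16. Gpr17, a receptor of committed precursors, lay at 8.39, 8.96 and 8.91 in controls, 8.69, 8.69 and 8.82 after acute and 8.26, 8.61 and 8.28 after chronic MPTP, with chronic below acute on every array. The difference from control was -0.37 ± 0.16 (adjusted p = 0.918 in limma). Rras2, a small GTPase, differed by -0.56 ± 0.16 for chronic against acute MPTP, Sox5, a SOX factor of precursors, by -0.37 ± 0.12, Vcan by 0.24 ± 0.10 and Sox6 by 0.17 ± 0.08 (adjusted p = 0.873 for each). Ust, a sulfotransferase, differed by 0.34 ± 0.14 for chronic MPTP against control (adjusted p = 0.918). Among the transcription factors, Hes5, the Notch target that restrains differentiation, differed by -0.27 ± 0.09 for chronic MPTP against control (adjusted p = 0.9), Myrf by 0.38 ± 0.17 (adjusted p = 0.929) and Sox8 by 0.28 ± 0.13 (adjusted p = 0.931). Myrf lay at 9.32, 9.88 and 9.94 in controls, 9.63, 9.74 and 9.88 after acute and 9.89, 10.24 and 10.15 after chronic MPTP, so that its lowest chronic value was within the control range.

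Myelin needs large amounts of cholesterol, which oligodendrocytes make themselves, as do other cells of the brain. Of 18 cholesterol synthesis genes, 17 were lower after chronic MPTP than in controls, with a median of -0.19, and 16 were lower than after acute MPTP, with a median of -0.18. None passed the threshold in limma, and 4 and 5 of 18 had an unadjusted p under 0.05 with a lower level. Over all 17480 tested probe sets, 9338 and 9595 were lower in these comparisons, 458 and 488 of them with an unadjusted p under 0.05. Sqle, the squalene epoxidase, lay at 9.38, 8.83 and 9.15 in controls, 8.93, 9.26 and 8.94 after acute and 8.69, 8.61 and 8.66 after chronic MPTP. The chronic arrays were below all 6 others, with a difference of -0.47 ± 0.14 from control (adjusted p = 0.9 in limma). Fdps, the farnesyl diphosphate synthase, differed by -0.53 ± 0.15 and Pmvk, a kinase of the mevalonate pathway, by -0.41 ± 0.14 for chronic against acute MPTP (adjusted p = 0.873 for both). The mean of this list was 0.13 on control 1, 0.15 on acute 2 and 0.02 on acute 1, the arrays high in cortical neuron markers. It was between -0.0012 and 0.07 on control 2, control 3 and acute 3, and -0.18, -0.18 and -0.06 on chronic 1, 2 and 3. Of the 16 cortical markers, 14 were lower after chronic MPTP than in controls (median -0.60). Without the 3 arrays high in cortex markers the median against control was -0.18 with 16 of 18 lower and 1 gene under an unadjusted p of 0.05. With cortex and thalamus markers as covariates it was -0.13 with 13 of 18 lower and 0 genes under that p.

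The glycolipid enzymes had a median of -0.04 for chronic MPTP against control (-0.15 without the 3 arrays high in cortex markers, 4 of 13 higher), with Psap at -0.15 ± 0.09, Elovl1 at 0.26 ± 0.15 and Galc, the lysosomal enzyme that degrades galactosylceramide, at 0.11 ± 0.10, none past the threshold. In the axon and node list, Rtn4r, the neuronal receptor of myelin inhibitors of axon growth, differed by -0.76 ± 0.22 and Fgf2 by 0.35 ± 0.13 for chronic against acute MPTP (adjusted p = 0.873 for both). Rtn4r lay at 7.86 on control 1 and at 7.75 and 8.07 on acute 1 and acute 2, the arrays high in cortical neuron markers, and between 6.92 and 7.38 on the other 6; the part of cortex tissue in its difference was not tested.

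Of the 27 differences of the 9 myelin genes, 19 turned sign when some single array was left out and 8 did not. The 8 were Mag, Ugt8a and Opalin for acute MPTP against control, Mobp for chronic MPTP against control, and Mog, Mag, Cnp and Cldn11 for chronic against acute MPTP. For chronic MPTP against control the median of the 9 was -0.08 with all arrays, 0.09 without chronic 2 and 0.01 without control 2. Without chronic 2 all 9 genes were on the higher side, with Ugt8a going from -0.10 to 0.27 and Mal from -0.12 to 0.14. For acute MPTP against control the median was 0.10 with all arrays, -0.03 without control 1, 0.22 without acute 2, 0.0015 without acute 3 and 0.05 without acute 1. For chronic against acute MPTP it was -0.12 with all arrays, 0.01 without chronic 2, -0.01 without acute 3, -0.28 without chronic 1, -0.26 without acute 2 and -0.20 without chronic 3. With cortex and thalamus markers as covariates the medians were 0.07, -0.36 and -0.43, and 0 of the 9 genes passed in any comparison. Cortex markers were low on all 3 chronic arrays (-0.37, -0.38 and -0.69), so this covariate and the chronic group cannot be fully told apart.

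**Figure D5:**
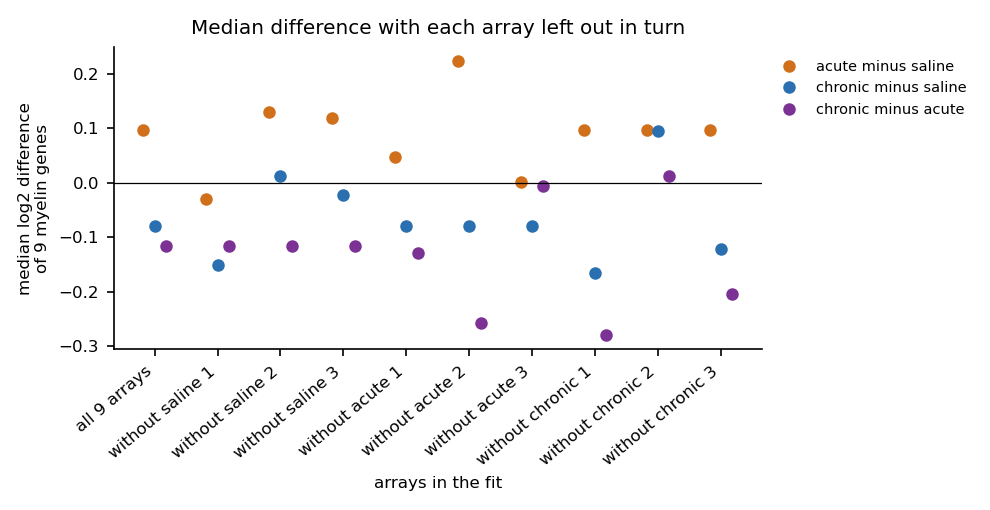
Median log2 difference of the 9 myelin genes (vertical axis) in the 3 comparisons with all arrays and with each array left out in turn (horizontal axis). The medians lie between -0.28 and 0.22, and that of chronic MPTP against saline control is above 0 without chronic 2 (0.09) and without control 2 (0.01).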

How the data were processed

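Striatal RNA was purified on Qiagen RNeasy columns, and 200 ng was turned into biotinylated cDNA (Ambion WT Expression kit, Affymetrix procedure), per the labels' protocols. The deposited values are log2 intensities of probe sets, a unit read from their range (4.27 to 14.43); background correction, normalization and summary are not given in the sources used here. Median (6.85 to 6.90) and quartiles were alike on all arrays, and the values were used as deposited. The number of arrays limits the precision.

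Probe sets were named by the platform annotation: 21780 have 1 symbol, 1605 several and 5430 none. Those with 1 symbol and a mean at or above the 25th percentile of all probe sets were tested, 17480 in all. limma 3.58.1 in R 4.3.3 fitted 1 mean per group to all 9 arrays, with two-sided tests and Benjamini-Hochberg adjustment over the tested probe sets (threshold 0.05). In lists, a gene with several probe sets was represented by the brightest. Tcf7l2 was listed both as a thalamus marker and as an oligodendrocyte transcription factor. Enpp2 was listed both as a choroid plexus marker and as a mature oligodendrocyte gene. Differences carry SEs and group means SDs. Named besides the 9 genes were, from each oligodendrocyte, lipid or node list, the 3 genes with the smallest unadjusted p in any comparison, and the 10 genes most and 5 least like the 9 over the arrays. Members, lists and tests were chosen with earlier results of these data known. The code was tested on simulated data.

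No 2 arrays shared more than 6.34% of values. Same-numbered arrays of different groups deviated together in all 9 pairs (r 0.15 to 0.67 across probe sets, against -0.60 to 0.18 in the 18 other pairs). By this measure, and without any statement in the labels, equal numbers were treated as possible pairs, and every comparison was also fitted with a replicate block. The SEs, intervals and p-values of the Results are from the fit without the block. The further alternatives were other filters, quantile normalization, array weights, an intensity trend, fits of 2 groups, tissue markers as covariates and left-out arrays.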

Additional observations from a re-analysis of the deposited data

How the results depend on the processing

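None of the 27 differences of the 9 myelin genes passed the threshold under any of the alternatives run, and 54 of the 324 values that an alternative moved at all (of 540) changed sign, 9 of them without chronic 2. With the replicate block the differences are the same by construction, since every group holds each number once. Of the 27, 0 passed, and 0, 0 and 2 probe sets passed in the 3 comparisons, as without it. More genes had an unadjusted limma p under 0.05. For chronic against acute MPTP they went from 3 to 8 of 26 sheath genes and 2 to 5 of 32 mature genes. Newly formed oligodendrocyte genes went from 1 to 5 of 14 and transcription factors from 0 to 5 of 15. For chronic MPTP against control, cholesterol genes went from 4 to 7 of 18. In no list did this number fall. Over all tested probe sets the share without the block was 5.38% for chronic MPTP against control and 5.11% for chronic against acute MPTP. The share with the block is not given here, so the rise is not read as a result about these lists. With quantile normalization the sign turned for Mal 0.010 for acute MPTP against control. With array weights the sign turned for Mbp -0.0059, Mobp -0.014, Cnp -0.065 for acute MPTP against control. With cortex and thalamus covariates the sign turned for Mal 0.0043 for acute MPTP against control, Mbp -0.066, Mobp -0.0005, Opalin -0.34 for chronic MPTP against control and Mbp -0.088, Mobp -0.083 for chronic against acute MPTP. Without the 3 cortex-rich arrays (control 1, acute 1 and acute 2) the sign turned for Mbp -0.045, Mal 0.22 for acute MPTP against control, Mbp -0.024, Opalin -0.067 for chronic MPTP against control and Mobp -0.10 for chronic against acute MPTP. Without the 2 choroid-rich arrays (control 3 and acute 3) the sign turned for Cnp -0.019, Ugt8a -0.055 for acute MPTP against control, Cldn11 0.11 for chronic MPTP against control and Mbp -0.0039, Mal 0.019 for chronic against acute MPTP. The median of the 9 genes for chronic MPTP against control moved to -0.36 with cortex and thalamus covariates, and that for chronic against acute MPTP to -0.43 with these covariates and -0.38 without the cortex-rich arrays. Without the cortex-rich arrays acute 3 is the only acute array, and it had the highest value of all 9 arrays for 6 of the 9 genes. Over all probe sets, 1 passed for acute MPTP against control when only 2 groups were fitted. For chronic against acute MPTP 1 passed without a filter, with 2 groups only or with a choroid plexus covariate, and 0 with cortex and thalamus covariates, without the cortex-rich or without the choroid-rich arrays. The causes of these changes were not tested. When each array was left out in turn, for acute MPTP against control the probe sets past the threshold numbered 0 to 1, the median of the 9 genes was -0.029 to 0.22, and genes whose sign turned were Mbp (-0.029 to 0.076), Mog (-0.0007 to 0.29), Mobp (-0.067 to 0.17), Cnp (-0.12 to 0.13), Mal (-0.14 to 0.14), Cldn11 (-0.12 to 0.34). For chronic MPTP against control the probe sets past the threshold numbered 0 to 2, the median of the 9 genes was -0.17 to 0.094, and genes whose sign turned were Mbp (-0.035 to 0.10), Mog (-0.38 to 0.015), Mag (-0.17 to 0.13), Cnp (-0.23 to 0.024), Mal (-0.28 to 0.14), Cldn11 (-0.34 to 0.11), Ugt8a (-0.35 to 0.27), Opalin (-0.20 to 0.20). For chronic against acute MPTP the probe sets past the threshold numbered 1 to 5, the median of the 9 genes was -0.28 to 0.012, and genes whose sign turned were Mbp (-0.066 to 0.066), Mobp (-0.056 to 0.17), Mal (-0.28 to 0.14), Ugt8a (-0.53 to 0.088), Opalin (-0.29 to 0.10). The median within-group SD of the 9 genes, 0.28, was 0.21 to 0.31 with 1 array left out. The medians of the other lists under tissue covariates, left-out arrays and the block, and the likeness without chronic 2, acute 3 or control 1, were added after seeing the data. With 3 arrays a group, an observed difference smaller than the half-width of its interval could not reach an unadjusted limma p of 0.05. The intervals are not adjusted for the number of probe sets, so a difference beyond the half-width need not pass the threshold either. Gsn, for chronic against acute MPTP, differed by -0.47 (interval -0.70 to -0.23) and had an adjusted p of 0.873 in limma.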
